A study of Mus musculus with 20 samples.

Results

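The mRNAs of 78 mitochondrial ribosomal protein genes were followed in embryonic mouse hearts. The genes were chosen by name and not by their expression: protein-coding genes whose symbol starts with Mrpl (large subunit, 49 genes) or Mrps (small subunit, 29 genes) followed by a digit, out of 48795 genes in the expression table. Another 6 pseudogenes with such symbols were left out. RNA sequencing (RNAseq) was carried out on 20 whole hearts of E13.5 embryos (mid-gestation), in 4 groups of 5: Dp3Tyb, the wild-type (WT) controls of Dp3Tyb, Ts1Rhr, and the WT controls of Ts1Rhr. Both strains model Down syndrome in the mouse, through a segment of chromosome 16 held in 3 copies, from Mir802 to Zbtb21 in Dp3Tyb and a shorter stretch inside it in Ts1Rhr. The study describes heart defects in Dp3Tyb embryos and none in Ts1Rhr embryos, although the labels give Ts1Rhr hearts 1 and 2 as defective and Ts1Rhr hearts 3 to 5 as free of defects. All 5 Ts1Rhr hearts were kept as 1 group by genotype. WT hearts carried no duplication. The study states that mutant and WT embryos were littermates, but the labels do not give which hearts shared a litter, so litter could not enter the fits and p-values measure the spread between these hearts. The comparison asked whether the machinery that translates mitochondrial mRNAs is expressed at another level in the hearts of either strain. The study set out to find which genes in 3 copies cause heart defects, and mitochondrial respiration was among the pathways it followed.

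Mitochondria carry their own ribosome, which makes only the few proteins encoded by mitochondrial DNA, all of them subunits of the oxidative phosphorylation complexes. Its rRNAs are mitochondrial, but every one of its proteins is encoded in the nucleus, made in the cytosol and imported. Some of these proteins descend from the bacterial ribosome and others exist only in mitochondria. The heart depends heavily on oxidative phosphorylation, and inherited defects of several mitochondrial ribosomal proteins cause cardiomyopathy in people.

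The libraries held 6.60 to 19.6 M reads each. The deposited values are reads divided by a factor for each library, and they are called normalised expression values here. Of the lists used to check labels and tissue, a selection of 10 of the genes present in 3 copies in both strains had median log2 fold changes of 0.50 in Dp3Tyb and 0.49 in Ts1Rhr, and a selection of 6 of those present in 3 copies in Dp3Tyb alone had medians of 0.64 and 0.03. Cardiomyocyte, endothelial, epicardial and mesenchymal markers were expressed in every heart. Reads of the mitochondrial genome made up between 4.85% and 19.5% of a library, above 10% in 7 of 20 libraries. Of these, 2 were in the Dp3Tyb cohort (a strain with its own WT group) and 5 in the Ts1Rhr cohort. These 7 libraries had 6.60 to 17.0 M reads and the other 13 had 12.2 to 19.6 M reads, so a high mitochondrial share went with fewer reads. Markers of lung and foregut, summed over 6 genes, ranged from 62.2 to 385 in Dp3Tyb, from 3.05 to 310 in its WT group, from 4.79 to 234 in Ts1Rhr and from 106 to 327 in its WT group, and Sftpc was at 0 in 15 of 20 libraries. The part of these markers in the results was not tested.

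All 78 genes were detected in every heart. The lowest value of any gene in any heart was 103, all passed the filter on low values, and together they held between 13511 and 49213 reads per library. Their share of the reads that are not mitochondrially encoded was 0.260 ± 0.0143% in Dp3Tyb and 0.263 ± 0.00520% in its WT group (SD, n = 5 each). It was 0.262 ± 0.0122% in Ts1Rhr and 0.260 ± 0.00361% in its WT group (SD, n = 5 each). In both cohorts the group means differed by less than the SD of the mutant group. In whole hearts, fewer cells of a type and less mRNA per cell cannot be told apart.

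The regulatory sequence in front of these genes is shown first, because nuclear genes for mitochondrial proteins share a small set of promoter motifs and because the genes in the list moved in opposite directions from heart to heart, as described further on. RefSeq promoters (build GRCm38.p6, 250 bases before to 50 bases after the transcription start) were matched by symbol for 69 of the 78 genes, with 75 promoters in all. The ETS core CCGGAAG was found on either strand in 34.7% of these promoters, against 8.86% of all 32851 promoters and 15.9% of 13809 promoters of protein-coding genes tested. The core bound by NRF1 (GCGCA and GCGC with any 1 base between them), a regulator of nuclear genes for respiration, was found in 17.3%, against 4.60% and 9.04%. The core AAGATGG bound by YY1 was found in 17.3%, against 6.34% and 6.54%. CACGTG, the E-box read by MYC among others, was found in 9.33%, against 7.15% and 9.52%, and TATAAA in 6.67%, against 13.6% and 7.32%. ETS matches were present in 31.2% of large subunit and 40.7% of small subunit promoters, and NRF1 matches in 20.8% and 11.1%. A match is a description of the letters and not evidence that a factor binds.

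The 120 bases before the start are given below for the genes whose mRNA followed the mitochondrial read share most strongly in each direction (Mrps15 and Mrpl42 upwards, Mrps14 and Mrpl44 downwards) and for all genes with at least 2 matches to the ETS, NRF1 or YY1 cores in this stretch. Capitals mark the matches on either strand. GCGCATGCGC reads the same on both strands, so in Mrpl32 and Mrpl9 the pair of matches is 1 site.
Mrps15, chr4:126046808-126046927, plus strand: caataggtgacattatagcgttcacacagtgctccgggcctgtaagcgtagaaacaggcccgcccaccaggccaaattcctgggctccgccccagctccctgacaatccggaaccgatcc
Mrpl42, chr10:95501950-95502069, minus strand: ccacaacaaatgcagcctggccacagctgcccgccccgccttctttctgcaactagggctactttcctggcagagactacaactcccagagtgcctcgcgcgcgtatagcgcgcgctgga
Mrps14, chr1:160195095-160195214, plus strand: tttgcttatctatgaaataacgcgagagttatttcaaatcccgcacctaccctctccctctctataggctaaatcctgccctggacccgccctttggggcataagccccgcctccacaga
Mrpl44, chr1:79775898-79776017, plus strand: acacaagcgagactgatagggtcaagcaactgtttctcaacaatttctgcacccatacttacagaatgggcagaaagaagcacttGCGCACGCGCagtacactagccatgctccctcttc
Mrpl32, chr13:14613038-14613157, minus strand: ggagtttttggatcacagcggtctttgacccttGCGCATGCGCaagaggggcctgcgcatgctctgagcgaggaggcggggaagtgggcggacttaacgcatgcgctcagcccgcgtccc
Mrpl9, chr3:94443216-94443335, plus strand: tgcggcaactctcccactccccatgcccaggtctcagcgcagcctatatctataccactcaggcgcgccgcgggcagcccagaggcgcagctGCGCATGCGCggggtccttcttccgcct
Mrpl45, chr11:97315596-97315715, plus strand: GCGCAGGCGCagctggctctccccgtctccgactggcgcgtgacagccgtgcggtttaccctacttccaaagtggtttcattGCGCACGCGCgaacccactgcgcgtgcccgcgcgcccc
Mrpl43, chr19:45006443-45006562, minus strand: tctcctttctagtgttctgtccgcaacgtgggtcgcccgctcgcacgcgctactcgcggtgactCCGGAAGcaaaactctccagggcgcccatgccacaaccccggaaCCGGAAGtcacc
Mrpl53, chr6:83108988-83109107, plus strand: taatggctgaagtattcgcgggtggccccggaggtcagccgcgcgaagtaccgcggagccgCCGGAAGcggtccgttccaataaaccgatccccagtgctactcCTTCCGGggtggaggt
Mrpl52, chr14:54426789-54426908, plus strand: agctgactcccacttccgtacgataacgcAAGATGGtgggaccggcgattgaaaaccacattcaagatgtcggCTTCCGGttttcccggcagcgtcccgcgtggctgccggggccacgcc
The NRF1 core began 35 bases before the start in Mrpl44, 87 in Mrpl32, 28 in Mrpl9, and 120 and 38 in Mrpl45. For Mrpl9 and Mrpl45 this start lies inside the annotated gene, which begins at chr3:94443154 and chr11:97314923. Their printed stretches are therefore within the gene and not in front of it. ETS cores began 56 and 12 bases before the start in Mrpl43 and 59 and 16 bases before it in Mrpl53. Mrpl52 had an ETS core 47 bases and a YY1 core 91 bases before its start. None of the 5 motifs was present in these 120 bases of Mrps15, Mrpl42 or Mrps14. Among the printed genes, these 120 bases held an NRF1 core in Mrpl32, which moved upwards with the mitochondrial share, and in Mrpl44, Mrpl9 and Mrpl45, which moved downwards. They held none in Mrps15 and Mrpl42 (upwards) or in Mrps14 (downwards). The printed genes were picked by slope or by matches after the values were seen. Mrpl32 and Mrpl9 are among them only because 1 site counted as a match on each strand. Whether a motif goes with the slope over the whole list was not tested.

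Levels of the mRNAs were compared between genes per kilobase of transcript, as the mean of the 10 WT hearts. In the large subunit they ranged from 52.4 per kb for Mrpl17 to 1644 per kb for Mrpl42, a 31.4-fold span around a median of 249, although these proteins are assembled in equal numbers except for Mrpl12. In the small subunit they ranged from 59.8 per kb for Mrps26 to 1060 per kb for Mrps21, a 17.7-fold span around a median of 254. After Mrpl42, a mitochondrion-specific protein, the highest large subunit genes were Mrpl33 (606 per kb) and Mrpl18 (587 per kb), and the lowest besides Mrpl17 were Mrpl55 (58.7 per kb) and Mrpl57 (69.6 per kb). After Mrps21, a homologue of bacterial S21, the highest small subunit genes were Mrps33 (451 per kb) and Mrps23 (440 per kb), and the lowest besides Mrps26 were Mrps28 (63.6 per kb) and Mrps25 (64.3 per kb). Mrpl12, the homologue of the bacterial stalk protein L7/L12, which is present in several copies per ribosome, had 443 per kb and ranked 7 of 49. Proteins with a bacterial counterpart had a median of 269 per kb in the large subunit (30 genes) and 254 in the small subunit (17 genes), and mitochondrion-specific proteins had 243 (19 genes) and 296 (12 genes). The 12 count Mrps18a and Mrps36, whose placing is described further on. These levels depend on the annotated transcript. With the median length of the best-supported transcripts the spans were 24.0-fold and 22.0-fold, Mrpl33 had 928 per kb, and Mrpl57 instead of Mrpl17 was the lowest large subunit gene, at 69.6 against 90.2 per kb. Mrpl23 (a mean WT value of 182) is uncertain, since its processed pseudogene Mrpl23-ps1 had a mean value of 133.

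**Figure D1:**
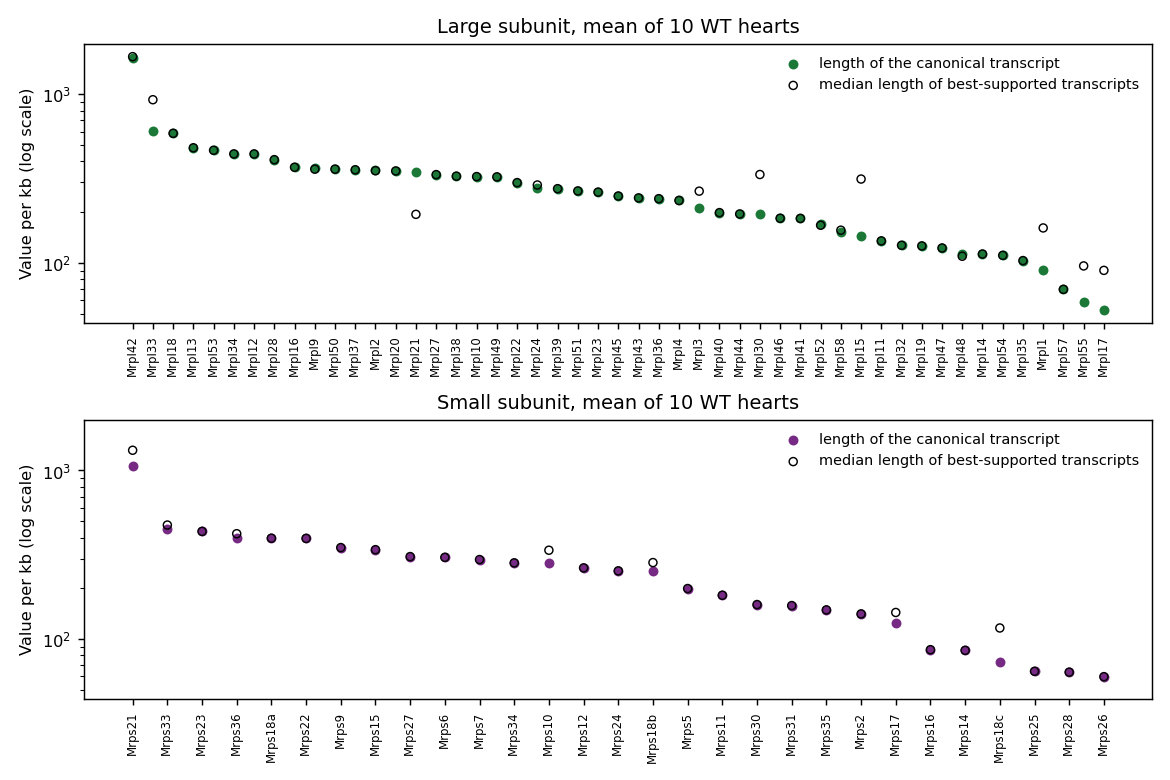
Normalised expression value per kilobase (log scale) of the 49 large and 29 small subunit genes, as the mean of 10 WT hearts; filled points use the canonical transcript and open circles the median length of the best-supported transcripts. Mrpl42 (1644 per kb) and Mrps21 (1060 per kb) stand above the other genes of their subunit, and open and filled points part most for Mrpl15, Mrpl1, Mrpl30 and Mrpl21.

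None of the 78 genes passed the test in Dp3Tyb hearts, either upwards or downwards. Across all 14763 genes tested 8 were called (0.0542%; limma, adjusted p under 0.05), and 413 had an unadjusted p under 0.05. Of the mitochondrial ribosomal protein genes 0 had an unadjusted p under 0.05, and the lowest adjusted p among them was 0.99996 by limma, 0.99989 by DESeq2 and 0.99994 by edgeR. Groups of 5 hearts did not overlap for 0.501% of all genes with Dp3Tyb higher and 0.474% with Dp3Tyb lower, and for 0 of the 78. The log2 fold changes lay between -0.16 and 0.12. Of the large subunit genes 35 of 49 were below 0, with a median of -0.03, and of the small subunit genes 20 of 29 were, with a median of -0.02. Among all genes tested 51.1% were below 0 and the median was -0.0027. With array weights the small subunit median was 0.01, and without the libraries over 10% mitochondrial it was 0.004, so its sign was not stable. The 95% interval of the change excluded a 1.5-fold difference in both directions for 77 of 78 genes, the exception being Mrpl44 (-0.51 to 0.69). The median distance from the estimate to either end of these intervals was 0.23.

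The genes furthest from 0 in Dp3Tyb hearts are given with all their values. Mrpl49, a mitochondrion-specific protein, measured 571, 468, 539, 496 and 529 in Dp3Tyb hearts 1 to 5 and 534, 553, 554, 587 and 687 in the WT hearts. All 5 Dp3Tyb hearts were below the WT mean, but heart 1 was above 3 of the WT hearts, and the log2 fold change was -0.16 (95% interval -0.35 to 0.03; limma adjusted p = 0.99996). Mrpl14, a homologue of bacterial L14 at the face where the subunits meet, measured 202, 196, 197, 148 and 144 against 245, 196, 173, 206 and 170.3, so Dp3Tyb hearts 4 and 5 alone were lower than all WT hearts. Mrpl1, the protein of the L1 stalk, measured 337, 335, 374, 316 and 406 against 373, 379, 377, 360.4 and 482. The highest value in each group was heart 5, which also had the highest mitochondrial read share of its group. Mrps28 measured 197, 184, 197, 173 and 131 against 206, 212, 192, 214 and 153, and the groups overlapped. The log2 fold changes were -0.16 for Mrpl14, -0.15 for Mrpl1 and -0.15 for Mrps28. With each heart left out in turn they ranged from -0.21 to -0.08 for Mrpl14, from -0.21 to -0.08 for Mrpl1 and from -0.24 to -0.05 for Mrps28, and with array weights Mrpl14 was at -0.07.

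At the other end Mrps25, a mitochondrion-specific protein of the small subunit, measured 372, 374, 381, 355 and 453 in Dp3Tyb against 325, 382, 331, 319 and 429 in WT hearts (log2 fold change 0.12). Mrps12, whose bacterial counterpart S12 lies at the decoding centre, measured 203, 236, 231, 198 and 189 against 160.0, 203, 205, 204 and 206 (log2 fold change 0.11). Both sets overlapped. Mrps11 and Mrpl44 were high in this ranking only through a single WT heart. Mrps11 measured 219, 213, 216, 213 and 103 in the WT hearts and 221, 188, 224, 216 and 166 in Dp3Tyb (log2 fold change 0.12, and -0.09 without WT heart 5). Mrpl44, a protein with an RNase III-like fold whose mutation causes infantile cardiomyopathy in people, measured 309.5, 330.4, 333, 353 and 129 in the WT hearts and 320.2, 339.6, 325, 315 and 190.2 in Dp3Tyb (log2 fold change 0.09, and -0.18 without WT heart 5). Exons of Mrps11 overlap those of Mrpl46 on the opposite strand, and exons of Mrpl44 overlap those of Wdfy1 in the same way. Whether the counting was stranded is not given in the sources used here, so reads of overlapping genes could have been mixed. Such overlaps were common, since exons of 60 genes in the list overlap those of another annotated gene. Opposite-strand overlaps are also found for other named genes, among them Mrpl10, Mrps12 and Mrps14.

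In Ts1Rhr hearts none of the 78 genes passed the test either. Of 14867 genes tested 4 were called (0.0269%) and 821 had an unadjusted p under 0.05, among them 1 mitochondrial ribosomal protein gene, Mrpl10. Groups did not overlap for 0.619% of all genes with Ts1Rhr higher and 0.498% with Ts1Rhr lower, and for 0 of the 78. The lowest adjusted p among the 78 was 0.795 by limma, 0.813 by DESeq2 and 0.832 by edgeR. The log2 fold changes lay between -0.20 and 0.24. They were below 0 for 26 of 49 large subunit genes (median -0.01) and 18 of 29 small subunit genes (median -0.03), against 50.4% of all genes tested (median -0.0016). Leaving out 1 heart at a time moved these medians to between -0.04 and 0.02, so their sign was not stable. The interval excluded a 1.5-fold difference in both directions for 77 of 78 genes, the exception being Mrps15 (-0.62 to 0.23), and the median distance from the estimate to either end was 0.21.

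Mrpl10, which anchors the L7/L12 stalk to the large subunit, measured 604, 554, 686, 649 and 647 in Ts1Rhr hearts and 539.9, 584, 554, 482 and 577 in their WT hearts. All 5 Ts1Rhr hearts were above the WT mean and 4 were above all WT hearts, with a log2 fold change of 0.20 (95% interval 0.03 to 0.37; limma adjusted p = 0.795). Among its stalk neighbours, Mrpl12 had a log2 fold change of -0.002 (-0.15 to 0.15), and Mrpl11, from the base of the stalk, measured 437, 379.7, 504, 477 and 422 against 450.3, 386, 439, 310.1 and 407 (log2 fold change 0.16, -0.08 to 0.40). Mrpl28 measured 453, 356, 584, 479 and 465 against 341, 398, 439.8, 297 and 514 (log2 fold change 0.24, -0.10 to 0.58). That of Mrpl28 was 0.11 with the mitochondrial read share as a term, 0.09 without the libraries above 10% mitochondrial reads, and 0.14 to 0.34 with 1 heart left out, which gave 0.07 to 0.22 for Mrpl11. Mrps12 was again among the highest, with 244, 209.9, 268, 215 and 190.0 against 187, 232, 171, 205 and 199.7 (log2 fold change 0.18, -0.07 to 0.42). Mrps12 was the only gene among the 4 highest of both strains, and in neither did its groups separate. With 1 heart left out its Dp3Tyb change lay between 0.04 and 0.15 and its Ts1Rhr change between 0.11 and 0.24.

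At the lower end stood Mrps15, with 726, 753, 498, 545 and 486 in Ts1Rhr and 716, 716, 566, 1032 and 476 in WT hearts (log2 fold change -0.20). Mrpl32, which is trimmed by the m-AAA protease before it enters the ribosome, measured 426, 468, 319, 345 and 303 against 458, 422, 387, 521 and 315 (log2 fold change -0.18). Mrpl42 measured 1535, 1626, 1126, 981 and 959.7 against 1458, 1372, 1145, 1912 and 1051 (log2 fold change -0.16). In all 3 the highest heart was WT heart 4, where mitochondrially encoded reads made up 17.2% of the library. The mean share was 10.5 ± 4.47% in the WT group and 8.45 ± 3.64% in Ts1Rhr (SD, n = 5 each). With this share as a term in the fit the log2 fold changes became -0.01 for Mrps15, -0.05 for Mrpl32 and 0.01 for Mrpl42. Mrps31 measured 485, 463, 399.6, 456 and 379 against 468, 481, 457, 559 and 452 (log2 fold change -0.15, and -0.09 with the share as a term). The part of the share in these changes was not tested. With each heart left out in turn the changes ranged from -0.32 to -0.05 for Mrps15, from -0.28 to -0.09 for Mrpl32 and from -0.26 to -0.04 for Mrpl42.

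**Figure D2:**
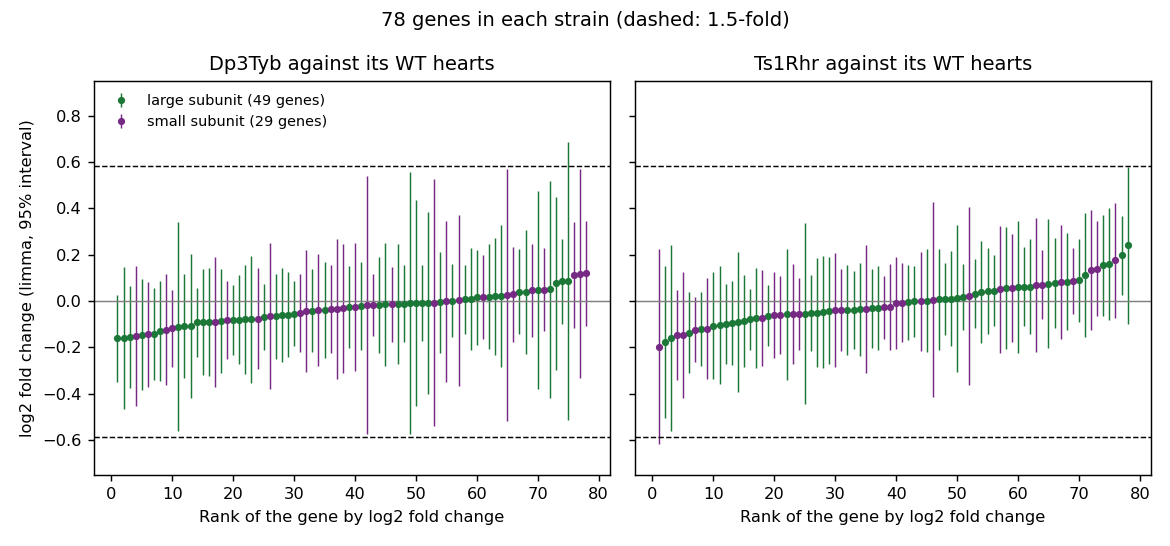
limma log2 fold change (points) with its 95% interval (lines) of the 78 genes in Dp3Tyb and in Ts1Rhr against the WT hearts of the same cohort, ranked from lowest to highest; green marks large and purple small subunit genes and dashed lines mark a 1.5-fold change. Points lie between -0.16 and 0.12 in Dp3Tyb and between -0.20 and 0.24 in Ts1Rhr, both subunits are mixed along the ranking, and 77 of 78 intervals in each strain stay inside the dashed lines.

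The difference between the strains was tested by an interaction term over all 20 hearts. Of 15348 genes 2 were called (0.013%) and 234 had an unadjusted p under 0.05, against 0 and 0 of the 78 genes, with a lowest adjusted p of 0.99966 by limma, 1 by DESeq2 and 0.99988 by edgeR. The Dp3Tyb change minus the Ts1Rhr change lay between -0.22 (Mrps28) and 0.18 (Mrps15), with a median of -0.04 in the large and -0.01 in the small subunit. Of the 78 genes 36 were below 0 in both strains, 15 above 0 in both, 19 below 0 in Dp3Tyb only and 8 in Ts1Rhr only. Each strain had its own WT group, so these counts share no hearts, but no single change behind them passed a test.

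Chromosome 16 carries 3 of the genes, and 0 of them lies inside the duplicated segment. Mrps6 ends 1.26 Mb before the Mir802 start (GRCm38 chr16:92058336-92112227), Mrpl39 lies further away (chr16:84718281-84735244) and Mrpl40, a gene of the segment deleted in human 22q11 deletion syndrome, further still (chr16:18872018-18876637). Mrps6, a homologue of bacterial S6, measured 287, 344, 301, 282 and 288 in Dp3Tyb and 312, 314, 329, 329 and 341 in WT hearts. Of the Dp3Tyb hearts 4 were below all WT hearts, but heart 2 was above all of them, and the log2 fold change was -0.12 (-0.28 to 0.05; limma adjusted p = 0.99996). In Ts1Rhr it was -0.01 (-0.18 to 0.16). Exons of Mrps6 overlap those of Slc5a3 on the same strand, so the counting could have split reads between them. Mrpl39 had log2 fold changes of -0.11 (-0.42 to 0.20) in Dp3Tyb and -0.10 (-0.36 to 0.15) in Ts1Rhr, and Mrpl40 had -0.01 (-0.22 to 0.21) and -0.11 (-0.34 to 0.12). With the mitochondrial share as a term the Ts1Rhr change of Mrpl39 was -0.0082, and it ranged from -0.19 to -0.05 with 1 heart left out. Without WT heart 5 the Dp3Tyb change of Mrpl39 was 0.02, and the signs for Mrpl40 in Dp3Tyb and Mrps6 in Ts1Rhr turned with the scaling. The intervals of all 3 excluded a 1.5-fold increase in both strains.

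Some genes carry a subunit name that does not match where the protein sits. Mrps18a and Mrps30 belong to the large subunit in the structure, and Mrps36 is a subunit of the 2-oxoglutarate dehydrogenase complex. Mrps30 measured 522 ± 21.3 in Dp3Tyb and 528 ± 47.5 in its WT group, and 541 ± 37.2 in Ts1Rhr and 551 ± 10.5 in its WT group (SD, n = 5 each). The 3 genes related to bacterial S18 had log2 fold changes in Dp3Tyb of 0.05 (Mrps18a), 0.05 (Mrps18b) and -0.14 (Mrps18c), and in Ts1Rhr of -0.06, 0.06 and -0.06. Mrps36 had -0.04 in both strains. Of 5 ribosomal proteins without an Mrp symbol 0 passed the test in either strain. Dap3, a GTP-binding protein of the small subunit, measured 827 ± 121 in Dp3Tyb and 838 ± 112 in its WT group. Ptcd3 measured 1574 ± 161 and 1573 ± 220, Aurkaip1 384 ± 31.1 and 387 ± 20.3, and Gadd45gip1 383 ± 43.3 and 369 ± 49.6. In Ts1Rhr the log2 fold changes were 0.10 for Dap3, -0.10 for Ptcd3, 0.08 for Aurkaip1 and -0.11 for Gadd45gip1. Chchd1 measured 415 ± 24.97 in Ts1Rhr and 466 ± 28.5 in its WT group (log2 fold change -0.17; limma adjusted p = 0.795) and 426 ± 47.2 and 424 ± 74.3 in the Dp3Tyb cohort (SD, n = 5 each).

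The genes were also split by origin. Proteins with a bacterial counterpart (47 genes) had a median log2 fold change of -0.04 in Dp3Tyb and 0.01 in Ts1Rhr, and mitochondrion-specific proteins (31 genes) had -0.02 and -0.04. The 31 count all genes outside the bacterial-type list, including Mrps18a, related to bacterial S18, and Mrps36, a subunit of another complex. The other gene lists of mitochondrial gene expression were also without a called gene in either strain. In Dp3Tyb 11 of 14 translation factors, 17 of 22 genes that charge mitochondrial tRNAs (aminoacyl-tRNA synthetases with the amidotransferase genes Qrsl1, Gatb and Gatc) and 18 of 26 assembly factors were below 0, with medians of -0.04, -0.03 and -0.05. In Ts1Rhr 7, 4 and 10 of them were below 0, with medians of -0.005, 0.08 and 0.08. Genes of mitochondrial transcription and biogenesis had medians of 0.00 (7 of 16 below 0) and -0.09 (11 of 16). Cytosolic ribosomal proteins, which form a separate ribosome, had medians of 0.01 (28 of 86 below 0) and -0.03 (48 of 86). The 15 mitochondrially encoded genes tested had a median of 0.03 in Dp3Tyb and -0.38 in Ts1Rhr, where 15 of 15 were below 0 and 0 was called.

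Heart by heart, the large and small subunit levels moved together and the mutant groups held the extremes. The level of a subunit in a heart was taken as the mean over its genes of log2(value + 1) minus the mean of that gene over all 20 hearts. In Dp3Tyb hearts 1 to 5 the large subunit level was 0.03, 0.02, 0.02, -0.11 and -0.10, and the small subunit level was 0.02, 0.01, 0.05, -0.10 and -0.10. The WT hearts of that cohort lay between -0.03 and 0.04 and between -0.04 and 0.02. In Ts1Rhr hearts the large subunit level was 0.07, -0.05, 0.12, 0.00 and -0.11, and the small subunit level was 0.08, -0.03, 0.10, -0.01 and -0.09, while their WT hearts lay between -0.01 and 0.03 and between -0.003 and 0.04. So Dp3Tyb hearts 4 and 5 and Ts1Rhr hearts 2 and 5 were lower than every WT heart of their cohort, and Ts1Rhr hearts 1 and 3 higher, in both subunits. The Ts1Rhr hearts labelled with heart defects, 1 and 2, lay on opposite sides of their WT hearts. The ratio of the summed large to the summed small subunit values stayed between 1.75 and 1.87 in all 20 hearts.

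The SD of the large subunit level was 0.07 in Dp3Tyb against 0.03 in WT hearts and 0.10 in Ts1Rhr against 0.02, and that of the small subunit level was 0.07 against 0.03 and 0.08 against 0.02 (n = 5 each). This wider spread of the subunit levels was not a wider spread of each gene in Dp3Tyb, where the SD of log2 values was larger in the mutant group for 32 of 78 genes (41.0%), against 36.3% of all genes tested. In Ts1Rhr it was larger for 52 of 78 (66.7%), against 45.7% of all genes. The difference in spread was not tested, because the heart levels are a score over the list.

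**Figure D3:**
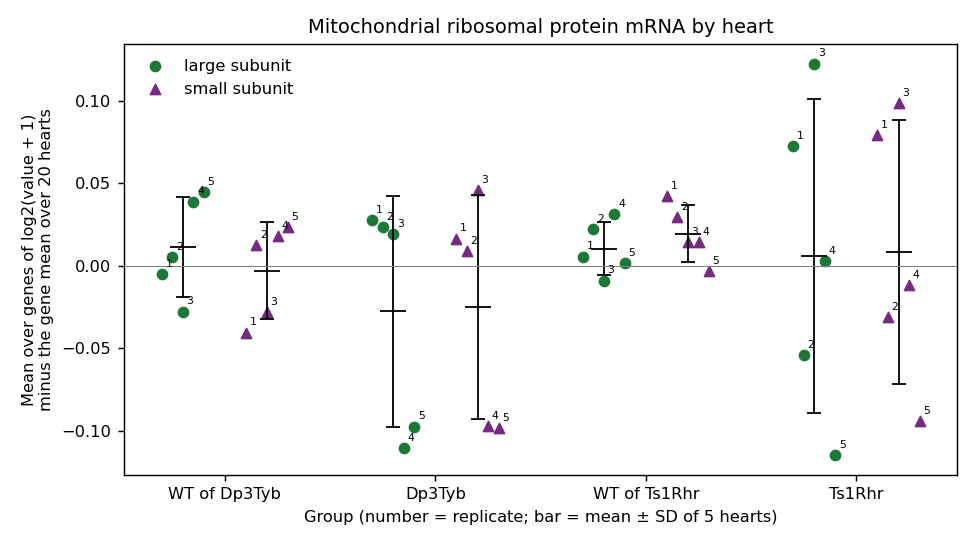
Level of the large (green circles) and small (purple triangles) subunit mRNAs in each of 20 hearts, as the mean over genes of log2(value + 1) minus the gene mean; numbers are replicates and black bars show the mean ± SD of 5 hearts. Large and small subunit values of a heart lie close to each other, WT hearts stay between -0.04 and 0.04, and the mutant hearts reach from -0.11 to 0.12.

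Cardiomyocyte markers moved with these levels in some hearts and not in others. Their level, computed in the same way over 10 genes, was -0.39 in Dp3Tyb heart 4 and -0.25 in Ts1Rhr heart 5, the lowest of all 20 hearts, and both hearts were among the lowest for mitochondrial ribosomal proteins. It was 0.26 and 0.15 in Ts1Rhr hearts 1 and 3, where the ribosomal protein levels were highest. Dp3Tyb heart 5 had a cardiomyocyte level of 0.07 with a low ribosomal protein level, and the WT hearts 1 and 5 of that cohort had cardiomyocyte levels of -0.20 and 0.19 with large subunit levels of -0.005 and 0.04. Summed over the 10 markers the values ranged from 310115 to 458638 in Dp3Tyb, 364634 to 532974 in its WT group, 362058 to 488093 in Ts1Rhr and 407308 to 485153 in its WT group. Mesenchymal markers were at 0.31 in Dp3Tyb heart 4 and 0.46 in Ts1Rhr heart 5, the highest of all hearts. Macrophage markers were also highest in these hearts (0.42 and 0.40) but at -0.30 in Ts1Rhr heart 1 and 0.10 in Ts1Rhr heart 3. Lung and foregut markers were at 2.18 and 1.22 in the same hearts and at -2.64 in both Ts1Rhr hearts 1 and 3. They were as far apart among WT hearts of the Dp3Tyb cohort, at 1.69, -2.89, 1.12, -2.71 and -2.58 in hearts 1 to 5, whose subunit levels lay between -0.04 and 0.04. Erythroid markers, summed over 8 genes, ranged from 116265 to 184190 in Ts1Rhr and from 66941 to 244259 in the WT hearts of that cohort. In the Dp3Tyb cohort the corresponding sums were 46570 to 84285 in mutant and 35306 to 72079 in WT hearts. Between groups, median log2 fold changes in Dp3Tyb and Ts1Rhr were -0.07 and -0.03 for cardiomyocyte and 0.19 and 0.09 for mesenchymal markers. They were 0.28 and 0.27 for macrophage and 0.13 and 0.29 for erythroid markers. Endothelial markers had -0.002 and 0.05, and epicardial markers 0.005 and 0.05. Of these marker genes 0 were called. The part of cell composition in the subunit levels was not tested.

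The largest variation within groups was not a shared level. After the group means were removed, 68.5% of the variance of the 78 genes lay along a single axis on which 41 genes pointed one way and 37 the other, and a further 11.2% lay along a second axis on which 77 of 78 genes pointed the same way (the exception was Mrps11). On the first axis WT heart 5 of the Dp3Tyb cohort (0.58) and Dp3Tyb heart 5 (0.45) stood furthest out, the libraries with 19.5% and 15.5% mitochondrially encoded reads. Each gene was then fitted to the mitochondrially encoded share of its library, with the 4 groups as terms, a fit that was chosen after this pattern had been seen.

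With a higher mitochondrial share 29 of 78 genes were higher and 27 were lower (limma, adjusted p under 0.05), 17 and 17 of them in the large and 12 and 10 in the small subunit. Across all 15333 genes 29.6% were higher and 31.7% lower, against 37.2% and 34.6% of the 78. The difference from other genes was not tested. In the Dp3Tyb cohort alone 26 were higher and 23 lower (27.7% and 30% of all genes), and in the Ts1Rhr cohort alone 19 and 16 (18.8% and 19.1%). The Dp3Tyb cohort slopes rest on heart 5 of each group (15.5% in Dp3Tyb and 19.5% in WT), because its other hearts lay between 4.85% and 6.15%. These were the hearts that stood furthest out on the first axis, so this cohort does not test that pattern independently. The same holds for its side of the comparison of signs between cohorts. The slopes had the same sign in both cohorts for 67 of 78 genes (85.9%), against 83% of 14590 genes tested in both. All 32 of the 78 called in both had the same sign, as had 5070 of the 5072 such genes overall. Without the 2 libraries furthest from the median share, 18 were higher and 24 lower (23.2% and 25.1% of all genes). With the log2 of the reads per library as a further term 14 were higher and 21 lower (18.2% and 18.8% of all genes).

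Mrps15, a homologue of bacterial S15, had the steepest slope, 0.85 ± 0.04 (SE) log2 units per 10 percentage points of share (limma adjusted p = 2.23e-14). Its value was 484, 484, 516 and 465 in Dp3Tyb hearts 1 to 4, at shares of 5.23% to 6.15%, and 887 in heart 5, at 15.5%. In the WT hearts of that cohort it was 437 to 498 in hearts 1 to 4 and 1054 in heart 5, at 19.5%. Its exons overlap Oscp1 on the same strand. Mrpl42 had a slope of 0.84 ± 0.05 (adjusted p = 2.24e-13), with 883 to 988 in the same 4 WT hearts and 2096 in heart 5. Next came Mrpl32 (0.64 ± 0.06) and Mrpl41 (0.52 ± 0.07), both large subunit genes. Within the Ts1Rhr cohort the slopes of these 4 genes were 0.88, 0.83, 0.63 and 0.46.

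In the other direction Mrps14, a homologue of bacterial S14, had a slope of -0.78 ± 0.07 (adjusted p = 3.20e-09). Its value was 357, 320.0, 325 and 334 in Dp3Tyb hearts 1 to 4 and 152 in heart 5, and 298 to 335 in WT hearts 1 to 4 and 176 in heart 5. Mrpl44 had a slope of -0.77 ± 0.07 (adjusted p = 6.65e-10), Mrps24 -0.75 ± 0.07 and Mrpl28 -0.67 ± 0.06. Exons of Mrps24 overlap those of Urgcp on the same strand. In the Ts1Rhr cohort alone the slopes of these 4 were -0.80, -0.56, -0.70 and -0.63. Genes of the same ribosomal subunit thus changed by about the same amount in opposite directions between hearts of 1 genotype. Per 10 percentage points these slopes were larger than the change of any of the 78 genes with genotype, but the sizes depend on this unit. It spans most of the range of shares, 4.85% to 19.5%. Mean shares of the groups lay closer, at 7.71% in Dp3Tyb and 8.10% in its WT group, and 8.45% in Ts1Rhr and 10.5% in its WT group.

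**Figure D4:**
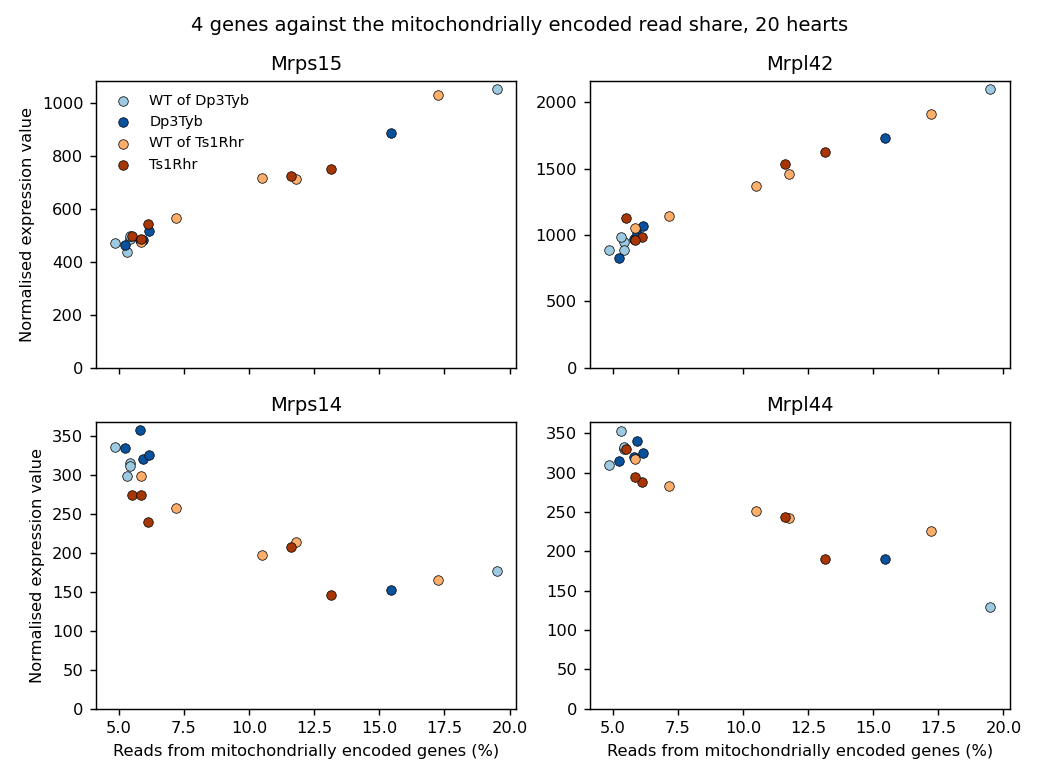
Normalised expression value of Mrps15, Mrpl42, Mrps14 and Mrpl44 in 20 hearts against the percentage of reads from mitochondrially encoded genes, with each group in its own colour. Mrps15 and Mrpl42 climb from 437 and 828 at low shares to 1054 and 2096 at 19.5%, and Mrps14 and Mrpl44 are lower at high shares. Whether the slopes differ between mutant and WT hearts was not tested.

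**Figure D5:**
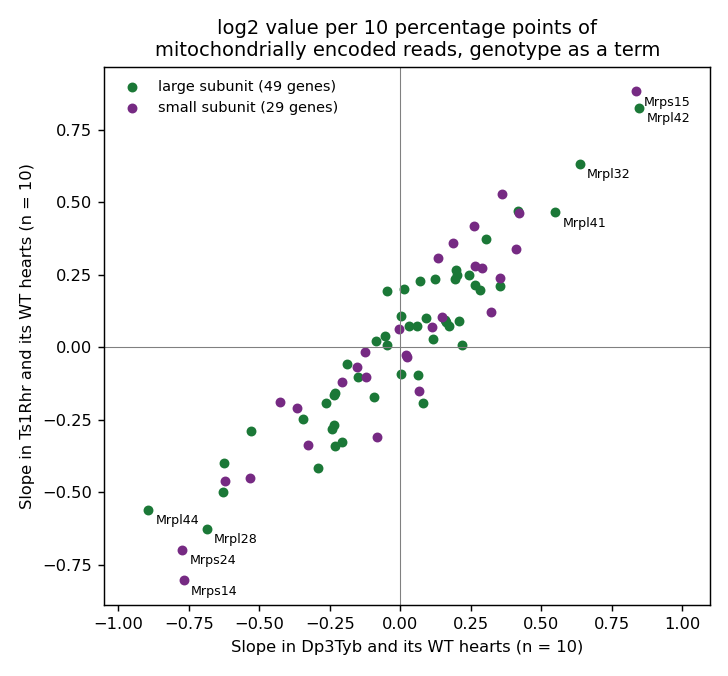
Slope of log2 value per 10 percentage points of mitochondrially encoded reads for the 78 genes in the Dp3Tyb cohort (horizontal axis) and the Ts1Rhr cohort (vertical axis), 10 hearts each; green marks large and purple small subunit genes. The cohorts share no hearts, 67 of 78 genes have the same sign in both, and both subunits are found at both ends. Slopes of the Dp3Tyb cohort rest on heart 5 of each group.

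Base composition differed between the ends of this ranking. The transcripts of the 10 genes with the lowest slopes had a median GC content of 53.8% (39.6% to 60.8%) and those of the 10 with the highest slopes 47.1% (42.2% to 57.0%), with median lengths of 1176 and 2196 bases. Across the 78 genes the rank correlation of slope and GC content was -0.29, and across 15202 genes with a known GC content it was -0.46, a description across genes, which are not independent replicates and share their libraries. Mrps14, at 39.6% GC, and Mrpl41, at 57.0%, went against it. The rank correlation of slope and transcript length was 0.14 across the 78 genes and 0.06 across the same 15202 genes.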

How the data were processed

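Total RNA from whole E13.5 hearts was sequenced after poly(A) selection (KAPA mRNA HyperPrep kit). The submitters' processing notes name Trimmomatic 0.36, STAR 2.5.2a, RSEM 1.2.31, DESeq2 and build GRCm38. Whether counting was stranded is not given in the sources used here. The authors deposited 1 table of 48795 genes in 20 libraries, a read signal normalised by a factor for each library. Within a tolerance of 0.001, 100% of values were whole multiples of the value of 1 read, so that reads could be recovered. The factors equalled median-of-ratios factors over all 20 libraries (largest relative difference 1.33e-15), so the cohorts can be compared on 1 scale. Depth was 6.60 to 19.6 M reads. No molecular identifiers were used, and p-values cover the spread between hearts.

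Identifiers were matched to GENCODE vM39 for names, lengths, GC content and exon overlap (44565 of 48795, 91.3%). Coordinates and promoters are from RefSeq on GRCm38.p6. The 5 hearts of a strain were set against their 5 WT hearts by limma 3.58.1 (R 4.3.3; trended, robust) on log2(value + 1), over genes that reached a value of 10 in 5 or more libraries, two-sided, with Benjamini-Hochberg adjusted p under 0.05 as the call. Fold changes are therefore on the log2(value + 1) scale, which slightly understates changes of low genes. Because the unit is not counts as deposited, DESeq2 1.42.0 and edgeR 4.0.16 on the recovered reads were alternatives, beside other pseudocounts, scalings, array weights, a mitochondrial share term and leaving out libraries. The scripts were tested on simulated data. Replicate numbers follow the order of deposition and pair no samples.

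The genes, lists and tests were chosen with earlier results of these data known. Named with their changes are the 4 lowest and 4 highest genes of each strain, the 3 lowest and highest per kb of each subunit, and genes chosen by role. The fits to the mitochondrial share, the genes named by their slopes there and the printed promoters were chosen after the values were seen.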

Additional observations from a re-analysis of the deposited data

Results flagged for a closer look

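For each of the 78 genes and 4 summed measures of them (the level of each subunit, their ratio and the share of non-mitochondrial reads), the 4 groups of 5 hearts were examined. Of these 328 groups, 42 (12.8%) held a heart far from the other 4, with a gap to its nearest neighbour above 0.71 of the range of the group (Dixon's 95% critical value). All 42 were single genes. Chance gives about 1 in 20 such groups, but the genes share their libraries, so the count is a description and not a test. Of the 42, 34 were in heart 5 of either group of the Dp3Tyb cohort. WT heart 5 had 19.5% mitochondrially encoded reads and 6.60 M reads, the highest share and lowest depth of all libraries, and Dp3Tyb heart 5 had 15.5% and 12.5 M reads. Their part in these values was not tested beyond the fits to the share given above.

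In WT heart 5 of the Dp3Tyb cohort, large subunit values stood high for Mrpl42 (2096), Mrpl18 (1421), Mrpl51 (1139), Mrpl39 (910.2), Mrpl32 (517), Mrpl1 (482) and Mrpl41 (408). Small subunit values stood high there for Mrps15 (1054), Mrps5 (984), Mrps35 (834), Mrps21 (822), Mrps33 (722), Mrps22 (569.6) and Mrps36 (561). Low values in the same heart were those of Mrps7 (388), Mrpl9 (382), Mrpl53 (297), Mrpl28 (273), Mrpl36 (206), Mrpl20 (197), Mrps14 (176), Mrps24 (159), Mrpl44 (129) and Mrps11 (103). In Dp3Tyb heart 5 the high values were Mrpl42 (1729), Mrps15 (887), Mrpl32 (492), Mrps25 (453) and Mrpl41 (354), and the low values were Mrpl9 (424), Mrpl20 (204), Mrpl36 (194), Mrpl44 (190.2) and Mrps14 (152). The direction was the same in both libraries for all 9 genes found in both.

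Among the other hearts that stood apart, WT heart 4 of the Ts1Rhr cohort did so for Mrps31 (559, high), Mrpl54 (492, high) and Mrps7 (417, low), at a mitochondrial share of 17.2%. Mrpl35 was low in Dp3Tyb heart 4 (354) and in WT heart 2 of the Ts1Rhr cohort (347). The rest were WT heart 1 of the Dp3Tyb cohort for Mrps12 (160.0, low), WT heart 5 of the Ts1Rhr cohort for Mrpl40 (306, low) and Ts1Rhr heart 3 for Mrps28 (257, high).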

How the results depend on the processing

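No mitochondrial ribosomal protein gene was called in Dp3Tyb, in Ts1Rhr or in the difference between them under any alternative run, including each heart left out. The lowest adjusted p among the 78 genes over all these settings was 0.354 in Dp3Tyb, 0.184 in Ts1Rhr and 0.602 for the difference. The subunit medians stayed within the spread between hearts but crossed 0 in some settings. Leaving out 1 heart gave -0.05 to -0.02 (large) and -0.04 to -0.0046 (small) in Dp3Tyb, and -0.04 to 0.02 and -0.04 to 0.0045 in Ts1Rhr. The other alternatives gave -0.03 to -0.0028 (large) and -0.04 to 0.0093 (small) in Dp3Tyb, and -0.03 to 0.02 and -0.04 to -0.0018 in Ts1Rhr.

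Of 22 named changes, 6 changed sign, none of them called. Mrpl40 in Dp3Tyb became 0.018 with scaling to non-mitochondrial reads, 0.033 with array weights, 0.0021 with the mitochondrial share as a term, 0.019 without libraries over 10% mitochondrial, 0.0041 by DESeq2 and 0.00081 by edgeR, and -0.039 to 0.052 with 1 heart left out. Mrpl44 in Dp3Tyb became -0.029 with array weights and -0.028 without libraries over 10% mitochondrial (-0.18 to 0.24 with 1 heart left out), and Mrps11 became -0.036 and -0.024 (-0.093 to 0.19). Mrpl39 in Dp3Tyb ranged from -0.17 to 0.020 with 1 heart left out. Mrpl42 in Ts1Rhr became 0.011 with the share term. Mrps6 in Ts1Rhr became 0.018 with scaling to non-mitochondrial reads and 0.0041 with TMM factors (-0.044 to 0.027 with 1 heart left out). The cause was not tested.

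The numbers of genes following the mitochondrial share, 29 higher and 27 lower, became 26 and 23 in the Dp3Tyb cohort and 19 and 16 in the Ts1Rhr cohort, each with 10 hearts. Those of the Dp3Tyb cohort rest on heart 5 of each group. The numbers over all hearts became 18 and 24 without the 2 libraries furthest from the median share and 14 and 21 with depth as a term, settings added after the data were seen.

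Calls over all genes moved more. The 8 in Dp3Tyb became 57 with array weights, 45 with the share term, 34 by DESeq2, 30 without libraries over 10% mitochondrial, 4 without a filter, and 2 to 13 with 1 heart left out. The 4 in Ts1Rhr became 16, 25, 25 and 0 under the first 4 of these, and 1 to 6 with 1 heart left out. The 2 of the interaction ranged from 0 to 3. No paired analysis was possible because the labels do not say which of the littermate mutant and WT hearts shared a litter, and the replicate numbers follow accession order and pair no samples.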
